A study of Homo sapiens with 4 samples.

Results

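BMAL1, written ARNTL in the annotation of the deposited tables, is a core gene of the circadian clock. Its members here are all 8 isoforms listed under that gene symbol among the 7251 isoforms of the authors' deposited isoform table. The gene itself was in none of the other tables: it had 0 rows among 1977 genes, 0 among 474 exons and 0 among 2672 introns. The 8 isoforms were therefore chosen from the same contrast that is described below, so their changes are given as a description, with no new test.

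BMAL1 is a transcription factor with a basic helix-loop-helix domain and PAS domains. It pairs with CLOCK or NPAS2, binds E-boxes and switches on the PER and CRY genes, whose products in turn block the pair. In a second loop, receptors of the ROR family activate BMAL1 and the REV-ERB receptors NR1D1 and NR1D2 repress it. In liver this oscillator times much of metabolism. METTL3 is the enzyme that, in a complex with partners, methylates adenosines of messenger RNA to N6-methyladenosine.

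RNA was measured in HepG2, an established human hepatocarcinoma line, in 2 libraries after an siRNA against METTL3 and 2 after a scrambled siRNA, called mock in the titles. Both groups received their siRNA again at 48 and 96 hours and were harvested on day 7, per the labels' protocols. The labels give no hour of harvest, no step that synchronised the cells' clocks and no sequence of the siRNA, and do not say how the cultures of a group were separated. The isoform table holds 1 FPKM value (fragments per kilobase of transcript, scaled to the library's total) for each group, so no SD can be given for an isoform. In bulk RNA, fewer cells with an isoform and less of it per cell cannot be told apart.

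The knockdown could be read from METTL3 itself. Its mean normalized count fell 3.96-fold, from 955 in the control to 241 after knockdown (authors' deposited table). In each of 8 listed exons of the locus that the table merges around METTL3, both knockdown libraries lay below both control libraries. Exons are listed for a difference between these same libraries, so this gap is a description and no separate support. A feature is in a table only where its adjusted p was under 0.05 and its change at least 2-fold. None of 14 hepatocyte and hepatoma markers was in the gene table, so their levels are unknown there. Of 10 markers of other cells, 3 were listed, all higher: CDH5 went from 161 to 1143, SYP from 27.02 to 69.2 and CD14 from 4.65 to 24.8 mean normalized counts. Their part in the results on BMAL1 was not tested.

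GENCODE 29 holds models of 4 of the 8 isoforms, ENST00000389707, ENST00000403290, ENST00000401424 and ENST00000403482. The other isoforms, ENST00000339640, ENST00000256172, ENST00000396441 and ENST00000389708, had no model there. These models are on GRCh38, while the submitters' processing notes name hg18, so a model may differ from the one the authors used. The gene lies on chromosome 11, at chr11:13276652-13387266 on the plus strand. The first 60 coding bases show how the 4 modelled isoforms differ at their beginning, with the start codon in capitals:
ENST00000389707: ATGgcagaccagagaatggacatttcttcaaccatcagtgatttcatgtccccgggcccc
ENST00000403290: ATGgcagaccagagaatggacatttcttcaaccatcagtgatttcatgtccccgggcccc
ENST00000401424: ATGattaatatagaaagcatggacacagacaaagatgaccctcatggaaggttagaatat
ENST00000403482: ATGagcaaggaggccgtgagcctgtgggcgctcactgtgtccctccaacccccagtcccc

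The first pair began with the same coding bases, and the other two each had a beginning of their own. ENST00000389707 and ENST00000403290 had 625 and 626 coding codons in 20 exons. ENST00000401424, also with 20 exons, had 583 codons. Its first exon lies at the same upstream start as that of ENST00000389707, and its start codon lies in its exon 5, an exon of 64 bases that no other modelled isoform held. ENST00000403482 had 14 exons and 624 codons. Its first exon began 79080 bases downstream of the first base of ENST00000389707, and 177 of its exonic bases were in no other modelled isoform.

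The ends of the coding sequences were shared: ENST00000403290 and ENST00000403482 were identical over their last 1701 coding bases. A small difference lay inside the shared coding sequence. At the junction before exon 13 of ENST00000389707, the other models carried 3 more bases, shown in capitals between 15 bases on either side:
ENST00000389707: gctcaaagaaaaaagatcgaaaaagcttct
ENST00000403290: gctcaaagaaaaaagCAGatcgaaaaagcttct
ENST00000401424: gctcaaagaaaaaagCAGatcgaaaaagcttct
ENST00000403482: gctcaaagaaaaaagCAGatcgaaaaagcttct

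ENST00000389707 and ENST00000403290 were nearly the same molecule in these models. They shared 2743 exonic bases and 18 junctions, with 33 bases only in the first, at its 5′ end, and 3 only in the second. Neither had an exonic base that was missing from all other modelled isoforms. Their separate values rest on how the authors' estimate divided reads between them, so their sum is given beside each value. ENST00000401424 shared 2721 exonic bases with ENST00000389707, and ENST00000403482 shared 2212 with ENST00000403290. Their values, and the split between higher and lower isoforms, thus also rest in part on such a division of reads.

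**Figure D1:**
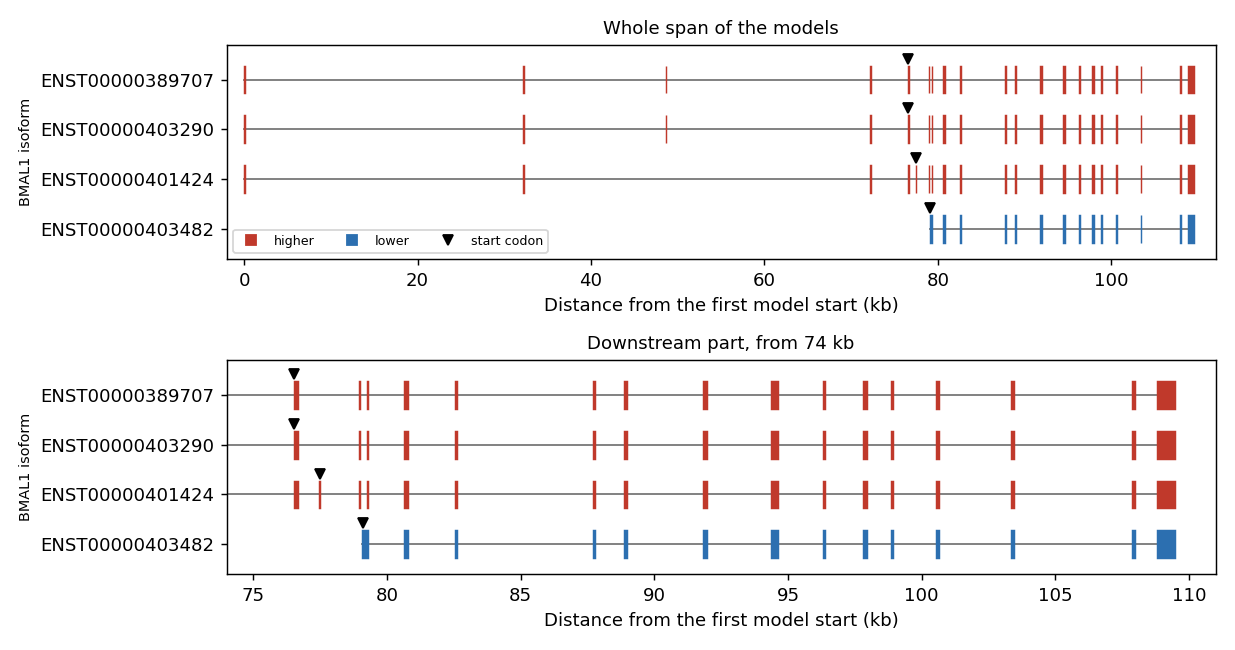
Exon models of the 4 BMAL1 isoforms with a GENCODE 29 model, drawn to scale as distance in kb from the first model start, whole in the upper panel and from 74 kb in the lower one. Boxes are exons, red for isoforms higher and blue for the isoform lower in the knockdown, and triangles mark start codons; the 3 higher isoforms start far upstream and the lower one starts 79080 bases downstream.

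Of the 8 isoforms, 4 were higher and 4 lower after METTL3 silencing, that is 50% higher. Over all 7251 listed isoforms 46.7% were higher and 53.3% lower, so the share of BMAL1 was near that of the table. The rule chose the isoforms from this contrast, and nothing is read from the count. The even count hid an uneven amount, since the higher isoforms gained more FPKM than the lower ones lost.

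The most abundant isoform in both groups was ENST00000339640. It went from 2.22 FPKM in the control to 5.64 FPKM in the knockdown, a log2 fold change of 1.34 (authors' deposited table, adjusted p = 2.38e-08). It held 33.3% of the summed FPKM of the 8 isoforms in the control and 42.4% in the knockdown.

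The largest relative rises were those of the near-identical pair. ENST00000389707, which encodes the form without the 3 extra bases, went from 0.382 to 3.21 FPKM, 8.40-fold (authors' deposited table, adjusted p = 3.97e-12). ENST00000403290, which holds them, went from 0.402 to 2.88 FPKM, 7.16-fold (authors' deposited table, adjusted p = 1.01e-10). Together they rose from 0.784 to 6.09 FPKM, 7.77-fold, and from 11.8% to 45.8% of the sum. By FPKM they ranked 6 and 5 of the 8 under the scrambled siRNA but 2 and 3 under the METTL3 siRNA.

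ENST00000401424, with the beginning of its own, rose least in FPKM among the higher isoforms. It went from 0.342 to 0.858 FPKM, a log2 fold change of 1.33 (authors' deposited table, adjusted p = 0.0172). All 3 modelled isoforms that were higher start in the upstream part of the gene.

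Among the lower isoforms, ENST00000256172 was the one with more than 1 FPKM in the control. It fell from 1.95 to 0.529 FPKM, a log2 fold change of -1.88 (authors' deposited table, adjusted p = 1.73e-07). It was the second most abundant of the 8 in the control, with 29.3% of the sum, and held 3.98% in the knockdown.

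The remaining lower isoforms were low in both groups. ENST00000403482, the one with the downstream start, fell from 0.675 to 0.0930 FPKM (authors' deposited table, log2 fold change -2.86, adjusted p = 0.000483). ENST00000396441 fell from 0.448 to 0.0950 FPKM (authors' deposited table, log2 fold change -2.24, adjusted p = 0.0203). ENST00000389708 went from 0.247 FPKM to a listed value of 0, so no fold is given (authors' deposited table, adjusted p = 0.00446).

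In the control, ENST00000339640 and ENST00000256172 together held 62.6% of the summed FPKM, and they moved in opposite directions. Of the 8 isoforms, 6 were under 1 FPKM in the control and 5 in the knockdown. The median of the 8 was 0.425 FPKM in the control and 0.694 in the knockdown, against 1.54 and 1.38 FPKM over all listed isoforms. The members nearest to the limits of the table were ENST00000396441 by its adjusted p, 0.0203, and ENST00000401424 by its log2 fold change, 1.33. Isoforms of the gene outside these limits have no value here.

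**Figure D2:**
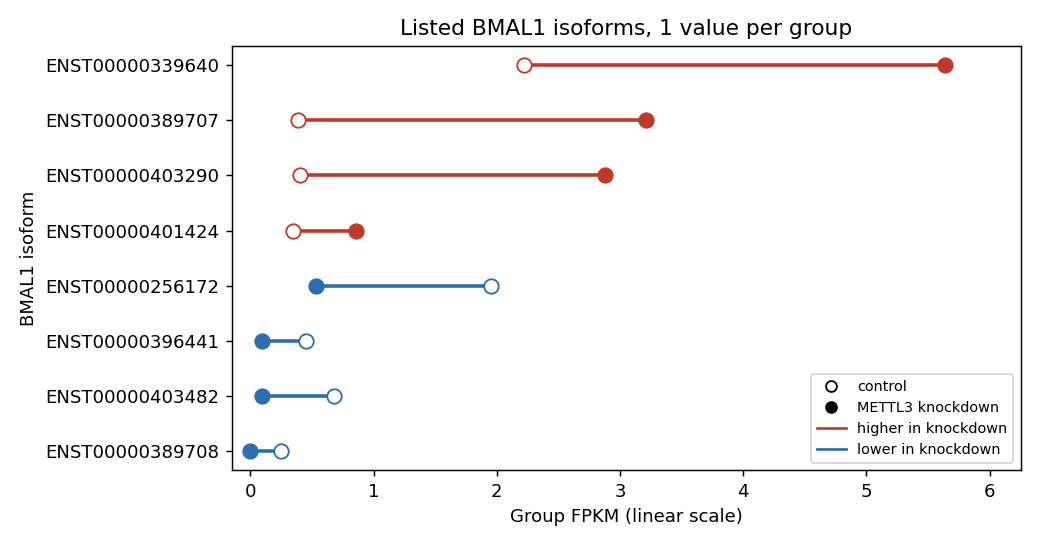
Group FPKM of the 8 listed BMAL1 isoforms on a linear axis, open circles for the control and filled circles for the knockdown, joined in red where higher and in blue where lower in the knockdown. The higher isoforms reach 0.858 to 5.64 FPKM in the knockdown, and the lower ones end between 0 and 0.529 FPKM.

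The 4 higher isoforms together rose from 3.35 to 12.6 FPKM and the 4 lower ones fell from 3.32 to 0.717 FPKM. The gain was 9.24 FPKM and the loss 2.60 FPKM. The sum of all 8 therefore went from 6.67 to 13.3 FPKM, a log2 ratio of 0.996 or 1.99-fold. The near-identical pair made up 5.30 FPKM of the gain. Without the pair, an alternative chosen after its values were seen, the sum went from 5.89 to 7.22 FPKM, a log2 ratio of 0.29.

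The split of the sum between the directions changed as well. The isoforms that rose held 50.2% of it with the scrambled siRNA and 94.6% with the METTL3 siRNA, 44.4 percentage points more. Without the most abundant isoform these shares were 25.3% and 90.6%. A positive shift is built into the way the isoforms are sorted. The gene table does not list BMAL1, and the sum covers listed isoforms alone, so it is not the level of the gene.

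With 1 FPKM added to both groups, 3 isoforms stayed at least 2-fold higher and 0 at least 2-fold lower. On that scale a fall can reach 2-fold only from at least 1 FPKM in the control. Likewise, a rise can reach it only with at least 1 FPKM in the knockdown. ENST00000256172 was the only lower isoform that could pass, and its log2 ratio was -0.95. ENST00000401424, at 0.858 FPKM in the knockdown, could not pass as higher. These counts are therefore not read as a difference between the directions.

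BMAL1 was compared with the other genes that had many listed isoforms. Leaving out 8 names of small RNA families, there were 73 genes with 5 or more listed isoforms, of which 2 had more than the 8 of BMAL1. Isoforms went in both directions in 64 of these genes, BMAL1 included. The shift towards the isoforms that rose ranged from 2.00 to 99.2 percentage points over the 64, with a median of 44.5, so that of BMAL1 lay in the middle, with 33 genes above and 30 below it. The log2 ratio of summed FPKM, computed with 0.1 FPKM added to each sum, had a median of -0.30 over the 64 genes and was 0.99 for BMAL1. It was larger in 12 genes and smaller in 51. An even split was found in 4 of the 73 genes.

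The 3 genes most like BMAL1 by the share of higher isoforms, the ratio of sums and the shift were BCR, ZNF644 and NAV1. The distance was taken over these 3 measures, each divided by its SD, among all 81 names with at least 5 listed isoforms. BCR, a GTPase-regulating protein known from its fusion with ABL1, had 3 higher and 2 lower isoforms. Its sum went from 6.13 to 11.4 FPKM and the share in the higher ones from 49.2% to 95.7%. ZNF644, a zinc finger gene, had 2 higher and 3 lower isoforms, and its sum went from 24.8 to 54.1 FPKM. NAV1, a neuron navigator gene, had 3 higher and 2 lower isoforms, and its sum went from 1.71 to 4.79 FPKM.

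**Figure D3:**
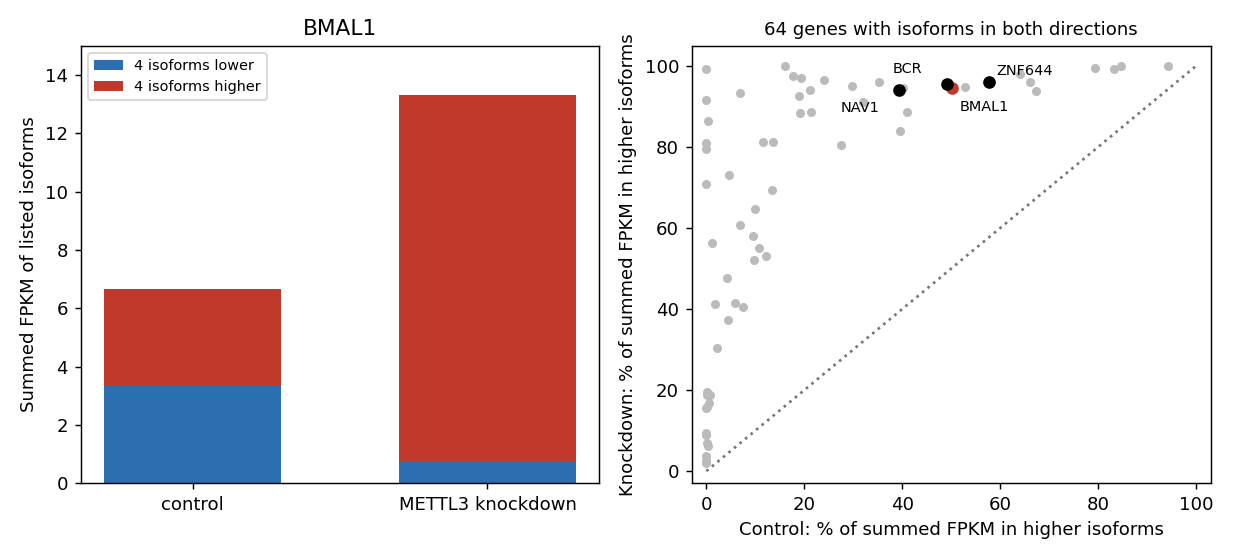
Left, summed FPKM of the 4 lower (blue) and 4 higher (red) BMAL1 isoforms in each group, from 6.67 in the control to 13.3 in the knockdown. Right, the percent of summed FPKM in the isoforms that were higher, control against knockdown, for 64 genes with isoforms in both directions, with BMAL1 in red and BCR, ZNF644 and NAV1 in black; the dotted line marks equal shares.

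The other genes of the clock were taken from a list of 40, BMAL1 included. Of these, 25 had a row in the gene, isoform or intron table and 15 had none, among them CLOCK, PER1, CRY2, NR1D1 and RORA. Listed as genes were 14, of which 7 were higher and 7 lower, against 41.3% higher and 58.7% lower among all 1977 listed genes. Their median log2 fold change was 0.01, against -1.10 over the table (authors' deposited table). No listed change is under 2-fold, so a median of genes or isoforms mainly follows the direction with more rows. No listed gene has a value near 0.01. Recentred on the median of the listed genes, 7 stayed at least 2-fold higher and 0 at least 2-fold lower. Recentring moves every value of a table up, so higher rows had to stay and only lower ones could drop out. Besides the BMAL1 isoforms, 26 isoforms of 20 list genes were in the isoform table. Of these, 15 were higher and 11 lower, or 57.7% higher against 46.7% of the table. By gene, 11 had a higher and 11 a lower isoform, with CSNK1D and CSNK2B in both counts. Recentring on the median of the listed isoforms left 15 higher and 3 lower. The median log2 fold change of the 25 with a value was 1.30, against -1.10 over all listed isoforms (authors' deposited table).

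Among the activators CLOCK was not listed. BMAL2, the paralog written ARNTL2 in the isoform table, rose from 177 to 360 mean normalized counts, 2.03-fold (authors' deposited table, adjusted p = 1.92e-08). Its isoforms ENST00000261178 and ENST00000395901 rose from 0.0242 to 3.20 and from 0.126 to 2.49 FPKM (authors' deposited table, adjusted p = 0.0369 and 0.0261). Intron 4 of NPAS2, the alternative partner, rose from 16.9 to 77.0 mean normalized counts (authors' deposited table, adjusted p = 0.0167).

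Of the 9 repressors of the list, 3 fell and 2 rose in the gene table. PER3 fell from 221 to 73.1 and PER2 from 429 to 199 mean normalized counts (authors' deposited table). TIMELESS, which acts mainly at replication forks in mammals, fell from 3251 to 1567 (authors' deposited table). The E-box repressor BHLHE41 rose 6.76-fold, to 95.0 mean normalized counts, and CIART, a repressor of the BMAL1 and CLOCK pair, from 3.10 to 20.5 (authors' deposited table). Of these 5 genes the isoform table held 1 isoform each, which went the same way as the gene. Intron 1 of CRY1 fell from 171 to 67.2 mean normalized counts (authors' deposited table).

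Among the 5 nuclear receptors that act on the BMAL1 gene, only NR1D2, a repressor of BMAL1 also named REV-ERB beta, was in the gene table. It fell from 2271 to 869 mean normalized counts (authors' deposited table, log2 fold change -1.39, adjusted p = 3.32e-57), and its isoform from 28.6 to 9.79 FPKM. The RORB isoform rose from 0.0239 to 0.207 FPKM (authors' deposited table).

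Of the 7 output genes, 3 rose and 3 fell in the gene table. NFIL3, a repressor that binds D-boxes, rose from 603 to 1999 mean normalized counts, and its main isoform from 16.1 to 50.4 FPKM (authors' deposited table). DBP and TEF, activators at the same boxes, fell from 92.2 to 45.9 and from 151 to 62.4 mean normalized counts (authors' deposited table). The cell cycle kinase WEE1 fell from 2677 to 912, with 3 of its introns also lower (authors' deposited table). NAMPT, which makes a precursor of NAD, rose from 984 to 2746 and the deadenylase-like NOCT from 173 to 402 mean normalized counts (authors' deposited table).

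Kinases and other regulators of clock proteins were listed mostly by isoform. The deubiquitinase USP2 rose from 262 to 605 mean normalized counts (authors' deposited table). As with BMAL1, the kinase CSNK1D had isoforms in both directions, ENST00000314028 from 2.52 to 6.21 FPKM and ENST00000392334 from 31.5 to 15.5 FPKM (authors' deposited table). The subunit CSNK2B did so too, with ENST00000375873 from 1.72 to 3.67 and ENST00000375866 from 5.75 to 2.53 FPKM (authors' deposited table). An isoform of the kinase PRKAA1 rose from 1.54 to 6.82 FPKM (authors' deposited table). An isoform of CSNK2A1 fell from 0.218 to 0 FPKM, and intron 1 of CSNK2A2 from 1808 to 893 mean normalized counts (authors' deposited tables). In all, 5 regulator isoforms were higher and 3 lower.

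The exon table, the one with a value per library, held 1 exon of a list gene. Exon 27 of a locus that merges CSNK1E with TPTEP1 and an unnamed gene was at 236 and 329 normalized counts after control siRNA and at 115 and 96.5 after METTL3 siRNA. The exon was listed for a difference between these same libraries, so the gap between the groups and a limma call were largely given in advance. The group means were 282.5 ± 65.2 and 105.6 ± 12.8 (SD, n = 2 per group). The log2 fold change was -1.40 ± 0.23 by limma (SE, adjusted p = 0.00456). In that limma test 65.6% of the 474 exons were called lower and 30.6% higher, and leaving out either knockdown library ended the call, with limma adjusted p of 0.0564 and 0.0728. Recentred on the median of the listed exons, the log2 fold change was -0.48 and no longer called (limma adjusted p = 0.111). Reads of the merged genes cannot be told apart. With this locus, 12 introns of 7 list genes were listed, 10 lower and 2 higher, or 16.7% higher. Among all listed introns 28.3% were higher and 71.7% lower. Several introns came from the same gene: by gene, 2 had higher and 5 had lower introns. Recentred on the median of the listed introns, which again moves every value up, 2 stayed higher and 0 lower.

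**Figure D4:**
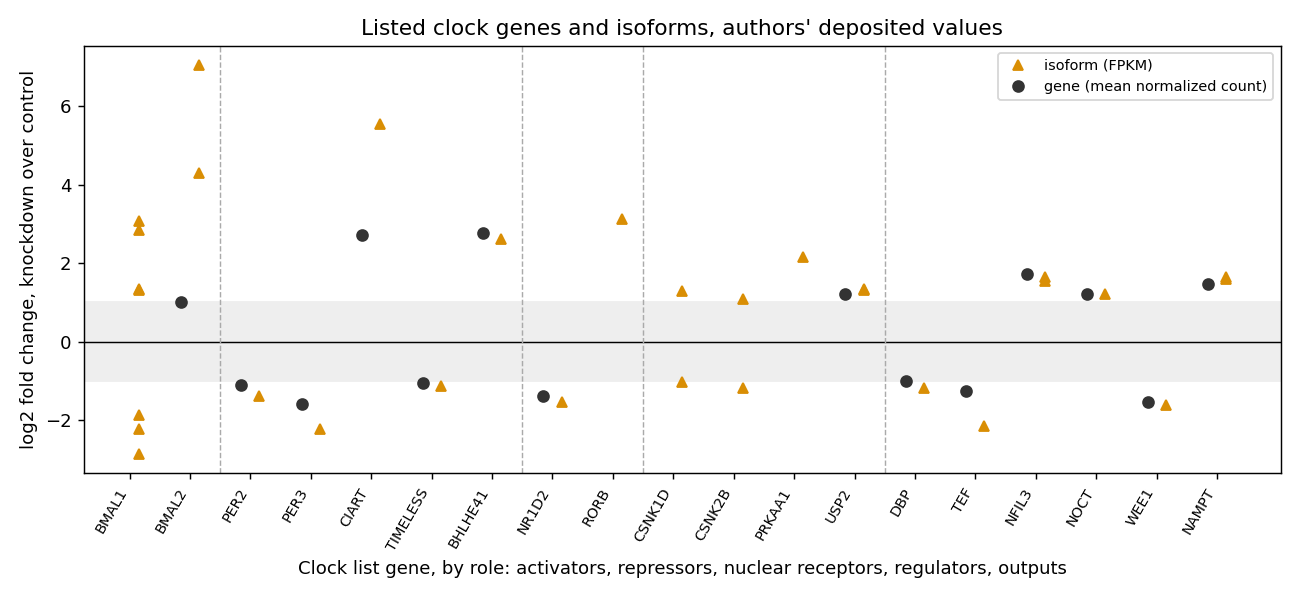
Log2 fold changes of the clock list genes, but for a gene not reported here, in the authors' deposited gene table (circles) and isoform table (triangles), grouped by role and separated by dashed lines; the grey band holds changes under 2-fold, which the tables do not list. BMAL1, the kinase CSNK1D and the subunit CSNK2B have isoforms on both sides of 0.

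The promoter of BMAL1 is shown because the 3 modelled isoforms that rose start just past it and because its known regulators were among the listed genes. RefSeq (GRCh38.p14) places starts of the gene at bases 13276652 and 13277790 of chromosome 11. The 250 bases before the second of these, chr11:13277540-13277789 on the plus strand, read:
BMAL1 promoter: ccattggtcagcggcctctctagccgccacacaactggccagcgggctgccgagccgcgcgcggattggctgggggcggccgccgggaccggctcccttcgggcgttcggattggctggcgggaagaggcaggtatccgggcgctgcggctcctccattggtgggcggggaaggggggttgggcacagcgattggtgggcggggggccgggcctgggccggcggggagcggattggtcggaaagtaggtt

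Windows from 250 bases before to 50 after each RefSeq start were searched on both strands for AGGTCA (the half-site bound by ROR and REV-ERB receptors), CACGTG (the E-box) and TTANGTAA (the D-box). RefSeq has 2 windows for BMAL1. The one around base 13276652 held none of the 3 motifs. The window of the promoter shown held AGGTCA once, 32 bases past the start, and neither of the other motifs. AGGTCA is found in 13.8% of 35116 such windows. It is in capitals in this stretch, chr11:13277810-13277833:
BMAL1 half-site: aggcagaaagtAGGTCAgggacgg

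Of the 14 list genes in the gene table, 13 had a promoter entry. The E-box was found in 5 of them, BHLHE41, CIART, NR1D2, TEF and TIMELESS, of which the first pair rose and the others fell. It occurs in 7.26% of all windows, and some genes have more than 1 window. The D-box was found in NR1D2, PER2 and PER3, all of which fell, and occurs in 2.18% of all windows. AGGTCA was found in 1 of the 13, NFIL3. Over all 34 list genes with a promoter entry, the E-box was found in 8, AGGTCA in 5 and the D-box in 4. These matches are letters in a window and do not show that a factor was bound.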

How the data were processed

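RNA of 4 HepG2 libraries, 2 per group, was made into 4 tables by the authors. The submitters' processing notes name, with no role, the build hg18, the aligner TopHat 1.2.0, the programs Cufflinks and Cuffdiff 1.0.3, and also HTSeq, CASAVA 1.8 and DESeq 1.5.24. The authors deposited 1 FPKM per group and isoform, and a fold change as natural log, here rescaled to log2. The gene and intron tables hold a deposited normalized signal, the mean count per group, with the authors' fold ratio and log2 fold change. The exon table holds a deposited normalized signal per library. The p-values of the tables are the authors' own, raw and adjusted, and their tests are the only tests of BMAL1 here. Library totals are unknown, so depth gives no interval.

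Isoforms were found by symbol and the other tables searched by Ensembl ID. FPKM were summed over listed isoforms. For exons, limma 3.58.1 (R 4.3.3) was fitted to log2(value + 1) of all 474, p-values were adjusted by Benjamini-Hochberg, and the step was tested on simulated data; with 2 libraries per group, these p-values measure only the spread between these samples. Named were all rows of BMAL1, rows of the clock list, METTL3, and the 3 genes of most like isoform pattern among those with at least 5 listed isoforms. Some isoforms and introns of the clock list are in the counts without their values. The values of a clock list gene that is within the counts are not reported here. The members and lists were chosen with earlier results of these data known.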

Additional observations from a re-analysis of the deposited data

How the results depend on the processing

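The count of higher BMAL1 isoforms was 3 or 4 under every alternative run. The count of lower ones was 3 at the authors' adjusted p of 0.01 and after recentring. It went from 4 to 1 when means under 1 FPKM were dropped and to 0 with a pseudocount of 1 FPKM. Lower isoforms that were under 1 FPKM in the control had to drop out under both of these settings. The counts of higher and lower isoforms are therefore not weighed against each other. The log2 ratio of summed BMAL1 FPKM, 0.996, was 1.05 without the isoform at 0, 0.78 without the most abundant isoform, 1.31 over isoforms averaging 1 FPKM or more, and 0.29 without the near-identical pair. The share in the higher isoforms in the knockdown, 94.6%, was 90.6%, 95.7% and 90.1% under the last 3 of these, and the share in the control, 50.2%, was 52.1%, 25.3%, 60.6% and 43.6% under the 4 in turn. The cause was not tested.

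Of the other clock list isoforms, 9 of 15 higher and 3 of 11 lower ones were left with a pseudocount of 1 FPKM. With a mean of at least 1 FPKM 7 lower ones were left, and 3 after recentring on the median of the listed isoforms, -1.10. Isoforms under 1 FPKM in both groups had to drop out with the pseudocount and with the limit on the mean. Recentring left 0 of 7 lower clock genes and 0 of 10 lower introns, since it moves every value up by the median of its table. The 2 higher introns became 1 at the authors' adjusted p of 0.01 and 1 when means under 50 normalized counts were dropped.

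For exon 27 of the CSNK1E locus the limma log2 fold change, -1.40, ranged from -1.63 to -1.16 with 1 library left out, where the lone library of a group is assumed to vary like the other group. It was -0.48 after recentring (limma adjusted p = 0.111), and the limma adjusted p ranged from 0.00198 to 0.111 over the alternatives. With a replicate block it was -1.40 (limma adjusted p = 0.0107), and 447 exons were called against 456. Same-numbered libraries share only a number: their deviations had a correlation of 0.0012 over the listed exons. No paired analysis was possible for isoforms, genes and introns because their tables hold 1 value per group. Depth is unknown, so the reads behind an FPKM cannot be counted.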

Other observations

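Other genes of the bHLH-PAS family and its coactivators, 15 in all, were looked up after the data were seen. Of these, 2 were listed as genes and 5 had a listed isoform. Listed introns were higher for AHR, AHRR, EPAS1, HIF1A and SIM2 (authors' deposited table). Intron 12 of ARNT2 fell from 20.1 to 0.420 mean normalized counts (authors' deposited table). Among all listed introns 28.3% were higher. No direction of the family is read from these rows. EPAS1, the hypoxia-inducible factor HIF-2 alpha, rose from 1615 to 9506 mean normalized counts, and its isoform from 17.1 to 101 FPKM (authors' deposited table). NPAS3 fell from 16.6 to 2.64 mean normalized counts (authors' deposited table). Its isoforms ENST00000356141 and ENST00000357798 fell from 0.114 to 0.0167 and from 0.118 to 0.0164 FPKM (authors' deposited table). An isoform of HIF1A rose from 0.869 to 6.20 FPKM and an isoform of ARNT, the general partner of the family, from 0.454 to 1.57 FPKM (authors' deposited table). The coactivator NCOA1, like BMAL1, had isoforms in both directions: ENST00000405141 rose from 0.122 to 0.604 and ENST00000406961 from 0.144 to 0.510 FPKM, while ENST00000407230 fell from 1.68 to 0.626 FPKM (authors' deposited table).

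The gene and isoform tables differed in size for BMAL2. Its gene count rose 2.03-fold, while its listed isoforms ENST00000261178 and ENST00000395901 rose from values near 0, 132-fold and 19.8-fold (authors' deposited tables). Other BMAL2 isoforms were not listed and have no value here.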
